A study of Mus musculus with 7 samples.

Results

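The potassium, voltage-gated calcium and voltage-gated sodium channel genes were followed in mouse glioma cells that differed in the number of functional copies of Ptprd, the gene of a phosphatase in the cell membrane that takes phosphate off tyrosines of other proteins. The genes were taken by symbol: those beginning with Kcn and a letter, with Cacna, Cacnb or Cacng, and those written Scn, a number and a or b. On the array 137 probe sets named 1 such gene alone, and they stood for 94 of the 12393 genes measured, of which 62 were potassium, 23 calcium and 9 sodium channel genes. The names cover the subunits that form the pores and the auxiliary subunits that travel with them. Each gene was read from its brightest probe set, by the mean of all 7 arrays.

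The 7 arrays came from gliomas of Ptprd-/-p16-/- mice (3 arrays, called null here), Ptprd+/-p16-/- mice (2 arrays, heterozygous) and Ptprd+/+p16-/- mice (2 arrays, wild type). Every mouse, the wild-type group included, thus lacked p16, a cell cycle inhibitor, on a strain background that mixed C57/BL6 with FVB/N. Tumours had been started by injecting the brain on postnatal days 1 to 3 with RCAS PDGFB GFP. This vector, built from an avian retrovirus, makes its host cell produce the growth factor PDGF-B together with a green fluorescent protein and enters only cells with the receptor tv-A, here driven by the Nestin promoter of neural progenitors. They were collected at symptoms or at 12 weeks, so the age at collection could differ between mice, and RNA of sorted GFP+DAPI- cells, that is living fluorescent cells, was hybridised. Replicates are named biological in the labels, without saying if each array is 1 mouse, so the p-values reflect only how these arrays vary.

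An ion channel is a pore whose opening lets a chosen ion cross the membrane. Sodium and calcium channels of these families open when the membrane is depolarised, and potassium channels bring it back towards rest. Neurons use them to fire. Oligodendrocyte progenitors, the cell type that PDGF-driven gliomas resemble, also carry voltage-gated sodium, calcium and potassium channels and AMPA-type glutamate receptors, and receive synapses from neurons. The auxiliary subunits set how many channels reach the surface and how they open and close.

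Of the 94 genes, 60 exceeded the 30th percentile of all probe sets on 2 or more arrays and were tested: 38 of 62 potassium (61.3%), 17 of 23 calcium (73.9%) and 5 of 9 sodium channel genes (55.6%), against 74.6% of all genes. Of the 34 genes left out, 31 were above that percentile on 0 arrays. Among them were Kcna3, a potassium channel of T cells and microglia, with log2 values of 4.49 to 4.64 in null, 4.49 and 4.23 in heterozygous and 4.58 and 4.31 in wild-type cells, and Kcnj8, an inward rectifier of pericytes, with 4.42 to 4.67, 4.70 and 4.53, and 4.60 and 4.60. Scn3a, a sodium channel of the embryonic brain, had 3.16 to 3.62 in null, 3.06 and 3.55 in heterozygous and 3.40 and 3.40 in wild-type cells. Their signals were thus too dim for a test in any genotype.

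Ptprd itself was measured at log2 values of 9.61, 8.95 and 9.93 in null, 9.42 and 9.57 in heterozygous and 10.86 and 10.89 in wild-type cells. The null and heterozygous arrays overlapped and all 5 lay below both wild-type arrays. The difference was -1.37 for heterozygous against wild type (limma, adjusted p = 0.0311). For null against wild type it was also -1.37 (limma, unadjusted p = 0.00106, adjusted p = 0.882). That was the largest fall among all genes tested in null against wild-type cells, where no gene had a smaller adjusted p. Whether the probe set lies in the altered part of the gene is not given in the sources used here, so the signal that remained in null cells does not test the deletion. The call for heterozygous cells was lost without either heterozygous array, either wild-type array or null replicate 1 (range of the difference over the 7 arrays left out in turn -1.45 to -1.30).

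Array medians lay between 6.62 and 6.71 and the 3'-to-5' differences of the Gapdh control between 0.19 and 0.47, with the groups overlapping. Heterozygous replicate 1 and null replicate 1 showed signal of both Xist, a transcript of female cells, and genes of the Y chromosome, and results are also given without these 2 arrays. The heterozygous arrays correlated best with each other (Pearson r = 0.992 across probe sets, which are not replicates), whereas each null array correlated best with a wild-type array.

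Markers of some other cell types differed with genotype. Over all genes tested, 4.2% rose and 5.95% fell past an adjusted p of 0.05 (limma) in heterozygous against wild-type cells, the shares to set beside the counts here. Of 16 microglia and macrophage markers listed, 15 were on the array and 13 were tested, and 11 rose in heterozygous against wild-type cells, with a median difference of 1.33. The log2 of their summed signal was 9.80 to 10.4 in null, 11.1 to 11.5 in heterozygous and 9.63 to 10.1 in wild-type cells. The log2 of the summed signal of 8 glioma and oligodendrocyte progenitor markers was 15.4 to 15.5 in null, 14.9 to 15.2 in heterozygous and 15.57 to 15.59 in wild-type cells, and 3 of the 8 fell in heterozygous against wild-type cells while 1, Nes, rose. For 11 neuron markers it was 11.3 to 11.5, 10.6 to 10.9 and 11.4 to 11.5. The neuron markers Rbfox3, Syt1, Gad2 and Slc17a6 were at or below the 30th percentile on all 7 arrays. Of the 7 neuron markers tested, 2 fell in heterozygous against wild-type cells, Gad1 by 1.24 and Snap25 by 0.84, and 0 rose. The other 5, Nefm (0.60), Tubb3 (0.52), Nefl (0.44), Eno2 (0.30) and Stmn2 (0.03), did not pass, and the median of the 7 was 0.30. Of 8 astrocyte markers, Gfap, Sox9 and Aldh1l1 rose in heterozygous against wild-type cells and S100b fell by 0.76. Of 7 endothelium and pericyte markers tested 1 rose, with Pecam1, Cdh5 and Tek at or below that percentile on all arrays, and of 6 myelin markers and 1 lymphocyte marker tested 0 passed. Counts of 1 or 0 in so few genes cannot be told from the shares over all genes. The part of these cell types in the channel results was not tested. In such samples fewer cells of a type and less RNA per cell cannot be told apart.

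In heterozygous against wild-type cells, 14 of the 60 channel genes tested (23.3%) passed an adjusted p of 0.05 in limma, beside 10.1% of all 9243 genes tested. Of these 14, 13 fell and 1, Cacng5, rose, beside 5.95% of all genes that fell and 4.2% that rose. The median difference was -0.24 on the log2 scale over the 60 genes and -0.04 over all genes. An unadjusted p below 0.05 was reached by 25 of the 60, beside 29.9% of all genes. Both heterozygous arrays lay above both wild-type arrays in 8 and below them in 29 of the 60, beside 26.2% and 35.1% of all genes. The calls spread over the 3 classes, with 8 of 38 potassium, 4 of 17 calcium and 2 of 5 sodium channel genes. Without 1 array the count over the 60 genes ranged from 0, with wild-type replicate 2 left out, to 14, with heterozygous replicate 2 left out. It was 3 when wild-type replicate 1 was left out, and 2 for heterozygous replicate 1. Without the 2 arrays with both Xist and Y-linked signal the heterozygous group was replicate 2 alone, and the median difference over the 60 genes was -0.09. The 14 differences kept their direction there, which was fixed in advance because the heterozygous and wild-type arrays did not overlap in any of them.

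**Figure D1:**
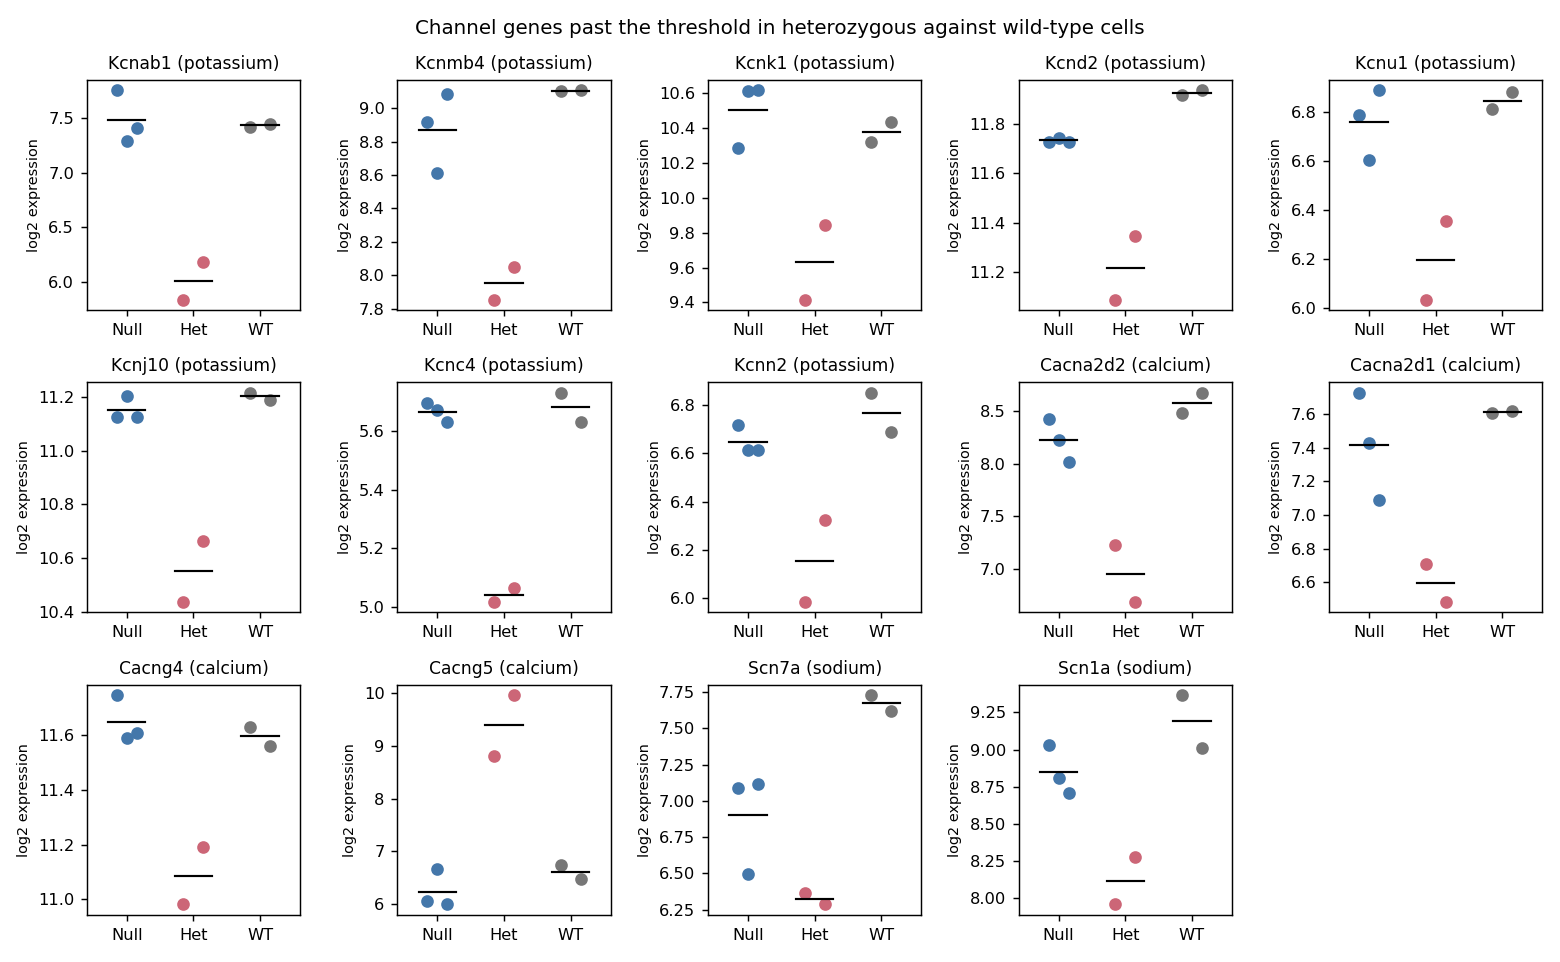
Log2 expression (y axis, a scale of its own in each panel, not starting at 0) of the 14 channel genes past the threshold in heterozygous against wild-type cells, with 1 point per array for null (3), heterozygous (2) and wild-type (2) cells and a bar at the group mean. In all 14 panels both heterozygous arrays lie on 1 side of both wild-type arrays and of all 3 null arrays, above them for Cacng5 and below them for the other 13.

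Promoters of members that moved are shown because Cacng5 moved against the rest. Of the 94 genes, 75 were in the RefSeq promoter table with 103 windows around annotated starts. The windows were searched on both strands for 3 motifs that read the same on either strand: CAGCTG, an E-box form, TTCNNNGAA, the STAT form, and TGANTCA, the AP-1 form, which do not overlap by their letters. The windows of Cacng5 (chr11:107915006-107915305, minus strand), Cacna2d2 (chr9:107399630-107399929, plus strand) and Kcnj10 (chr1:172340960-172341259, plus strand), all from RefSeq on GRCm38.p6, read 5′ to 3′ as follows, with a motif match in capitals.
Cacng5: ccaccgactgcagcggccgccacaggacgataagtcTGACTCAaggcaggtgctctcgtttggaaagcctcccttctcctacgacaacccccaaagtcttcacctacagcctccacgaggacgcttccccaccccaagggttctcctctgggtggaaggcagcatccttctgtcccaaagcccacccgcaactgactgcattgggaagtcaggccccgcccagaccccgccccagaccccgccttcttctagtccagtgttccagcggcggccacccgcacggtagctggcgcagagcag
Cacna2d2: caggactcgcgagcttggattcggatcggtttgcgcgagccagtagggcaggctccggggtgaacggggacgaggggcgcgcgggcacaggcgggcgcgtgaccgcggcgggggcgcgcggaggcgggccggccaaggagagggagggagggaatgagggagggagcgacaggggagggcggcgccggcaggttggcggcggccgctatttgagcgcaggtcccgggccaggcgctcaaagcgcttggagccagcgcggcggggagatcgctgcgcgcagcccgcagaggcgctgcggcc
Kcnj10: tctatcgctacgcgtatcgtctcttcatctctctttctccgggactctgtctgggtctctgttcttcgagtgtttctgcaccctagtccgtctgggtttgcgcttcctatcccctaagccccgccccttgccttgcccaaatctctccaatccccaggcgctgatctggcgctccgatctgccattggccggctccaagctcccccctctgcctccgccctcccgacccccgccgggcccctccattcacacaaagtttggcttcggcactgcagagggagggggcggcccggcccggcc
The Cacng5 window held 1 AP-1 match, and its second window in the table held 0 matches of the 3 motifs, as did those of Cacna2d2 and Kcnj10. Of the 13 genes that fell, 10 had 12 windows, and the AP-1 form was in 0 of them, the E-box form in 1 (Scn7a, 8.33%) and the STAT form in 1 (Kcnab1, 8.33%). Among all 32851 windows in the table the shares were 7.81% for AP-1, 16.3% for the E-box form and 8.3% for STAT, and among the 103 channel windows 4.85%, 28.2% and 9.71%. The median number of CpG dinucleotides was 13.5 in the 12 windows of genes that fell, 10 in the channel windows and 7 in all windows. A match describes letters only and says nothing of what binds there.

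Among the potassium channels, 8 genes fell in heterozygous against wild-type cells and 0 rose. The median over the 38 tested was -0.18. The 8 came from each family of pores and from the auxiliary subunits. Over all genes 10.1% were called, with 5.95% lower. The families held 5 to 11 tested genes each, so counts of 1 or 2 do not set a family apart from genes at large.

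Voltage-gated potassium pores were called in 2 of 11 genes. Kcnd2 encodes a pore of the fast inactivating A-type current. It measured 11.73, 11.74 and 11.73 in null, 11.09 and 11.35 in heterozygous and 11.92 and 11.94 in wild-type cells. The groups did not overlap, and null cells lay between the other two. Kcnd2 fell 1.64-fold in heterozygous against wild-type cells (log2 difference -0.71 ± 0.12 SE, limma adjusted p = 0.0172), and its 2 other probe sets differed by -0.65 and -0.58. Kcnc4, a pore for fast repolarisation, measured 5.69, 5.67 and 5.63 in null, 5.02 and 5.07 in heterozygous and 5.73 and 5.63 in wild-type cells, a difference of -0.64 ± 0.10 (adjusted p = 0.0146). Its other probe set differed by 0.11, so the fall of Kcnc4 rests on 1 of 2 probe sets, and on one whose name marks sequence that may be shared with other transcripts. Kcnh2, the channel of the cardiac delayed rectifier that is also known from tumour cells, had 7.56, 7.42 and 7.64 in null, 6.76 and 7.03 in heterozygous and 7.27 and 7.62 in wild-type cells, and missed the threshold (-0.55 ± 0.16, adjusted p = 0.0728). Kcna1, a low-threshold channel of axons, differed by 0.39 ± 0.29 with heterozygous replicate 2 at 10.59 and all other arrays between 9.56 and 9.90 (adjusted p = 0.395). Kcnc1, a channel of fast-firing neurons, differed by -0.00 ± 0.14 (adjusted p = 0.99).

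Of 5 inward rectifiers tested, which pass potassium more readily into the cell than out, only Kcnj10 was called. It encodes the channel through which astrocytes and oligodendrocyte lineage cells hold a negative resting potential and take up potassium. Kcnj10 measured 11.13, 11.20 and 11.13 in null, 10.44 and 10.67 in heterozygous and 11.22 and 11.19 in wild-type cells. It fell 1.57-fold in heterozygous against wild-type cells (-0.65 ± 0.11, adjusted p = 0.0202). Both heterozygous arrays lay below the other 5, which spanned less than the gap to them. The astrocyte markers moved in both directions, with 3 of 8 higher, 1 lower and 4 not past the threshold, and a median difference of 1.40. The log2 of their sum was 12.3 to 12.7 in null, 12.4 to 12.5 in heterozygous and 12.36 to 12.41 in wild-type cells. Their part in the Kcnj10 difference was not tested.

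The 2-pore domain channels carry background potassium currents, and 1 of 7 was called. Kcnk1 measured 10.28, 10.62 and 10.62 in null, 9.42 and 9.85 in heterozygous and 10.32 and 10.44 in wild-type cells. It fell 1.68-fold in heterozygous against wild-type cells (-0.75 ± 0.18, adjusted p = 0.0471), and its other probe set differed by -0.61. Kcnk2, a channel gated by stretch and lipids, differed by -0.14 ± 0.24 (adjusted p = 0.741), and Kcnk10, its close relative, by -0.38 ± 0.11 (adjusted p = 0.0672). Kcnk13 encodes the main background potassium channel of microglia. It measured 7.42, 7.07 and 7.35 in null, 6.67 and 7.47 in heterozygous and 7.29 and 7.04 in wild-type cells. Its heterozygous arrays thus were the lowest and the highest of the 7, and it differed by -0.10 ± 0.26 (adjusted p = 0.845). The summed microglia markers were higher on both heterozygous arrays than on the wild-type arrays. Their part in the Kcnk13 values was not tested.

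Calcium-activated potassium channels and their relatives were called in 2 of 5 genes. Kcnn2, a small-conductance channel opened by calcium through calmodulin, measured 6.72, 6.61 and 6.61 in null, 5.98 and 6.32 in heterozygous and 6.85 and 6.69 in wild-type cells (-0.61 ± 0.14, adjusted p = 0.0408). Kcnu1, known as the potassium channel of sperm, measured 6.79, 6.603 and 6.89 in null, 6.03 and 6.35 in heterozygous and 6.81 and 6.88 in wild-type cells (-0.65 ± 0.15, adjusted p = 0.0408). Both genes have a single probe set here. Kcnma1, the large-conductance channel that glioma cells are known for, differed by -0.27 ± 0.20 (adjusted p = 0.407). Its other probe set differed by -0.51, with both heterozygous arrays below both wild-type arrays. Kcnn4, a channel of immune and glioma cells, differed by 0.22 ± 0.23 (adjusted p = 0.562).

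The auxiliary subunits held the largest falls among the potassium channel genes, with 2 of 10 called. Kcnab1 encodes a cytoplasmic subunit that gives voltage-gated channels fast inactivation. It measured 7.75, 7.29 and 7.41 in null, 5.84 and 6.18 in heterozygous and 7.41 and 7.45 in wild-type cells. The null and wild-type arrays overlapped, and the heterozygous arrays lay more than 1 unit below both. Kcnab1 fell 2.68-fold in heterozygous against wild-type cells (-1.42 ± 0.18, adjusted p = 0.00962), with -0.99 in its other probe set. Kcnmb4, the subunit that slows the large-conductance channel in brain, measured 8.92, 8.61 and 9.09 in null, 7.86 and 8.05 in heterozygous and 9.10 and 9.11 in wild-type cells, and fell 2.22-fold (-1.15 ± 0.17, adjusted p = 0.0129). Its pore Kcnma1 did not pass, though the 2 probe sets of Kcnma1 differed by -0.27 and -0.51. Kcnip1 and Kcnip2, calcium-binding partners of Kcnd2 and its relatives, differed by 0.55 ± 0.26 (adjusted p = 0.203) and 0.13 ± 0.17 (adjusted p = 0.642). Their relative Kcnip3, outside the rule for naming and added after its values were seen, went the other way without passing. It differed by -0.62, and by -0.87 in its other probe set.

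The potassium calls depended on single arrays. There were 8 with all arrays and without heterozygous replicate 2, 6 without null replicate 1 or 2, 5 without null replicate 3, 1 without wild-type replicate 1 and 0 without wild-type replicate 2 or heterozygous replicate 1. Each of the 8 genes lost its call without either wild-type array and without heterozygous replicate 1. Over the 7 arrays left out in turn the adjusted p lay between 0.0135 and 0.0913 for Kcnab1 and between 0.0398 and 0.226 for Kcnk1. The difference of Kcnab1 then lay between -1.59 and -1.25.

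**Figure D2:**
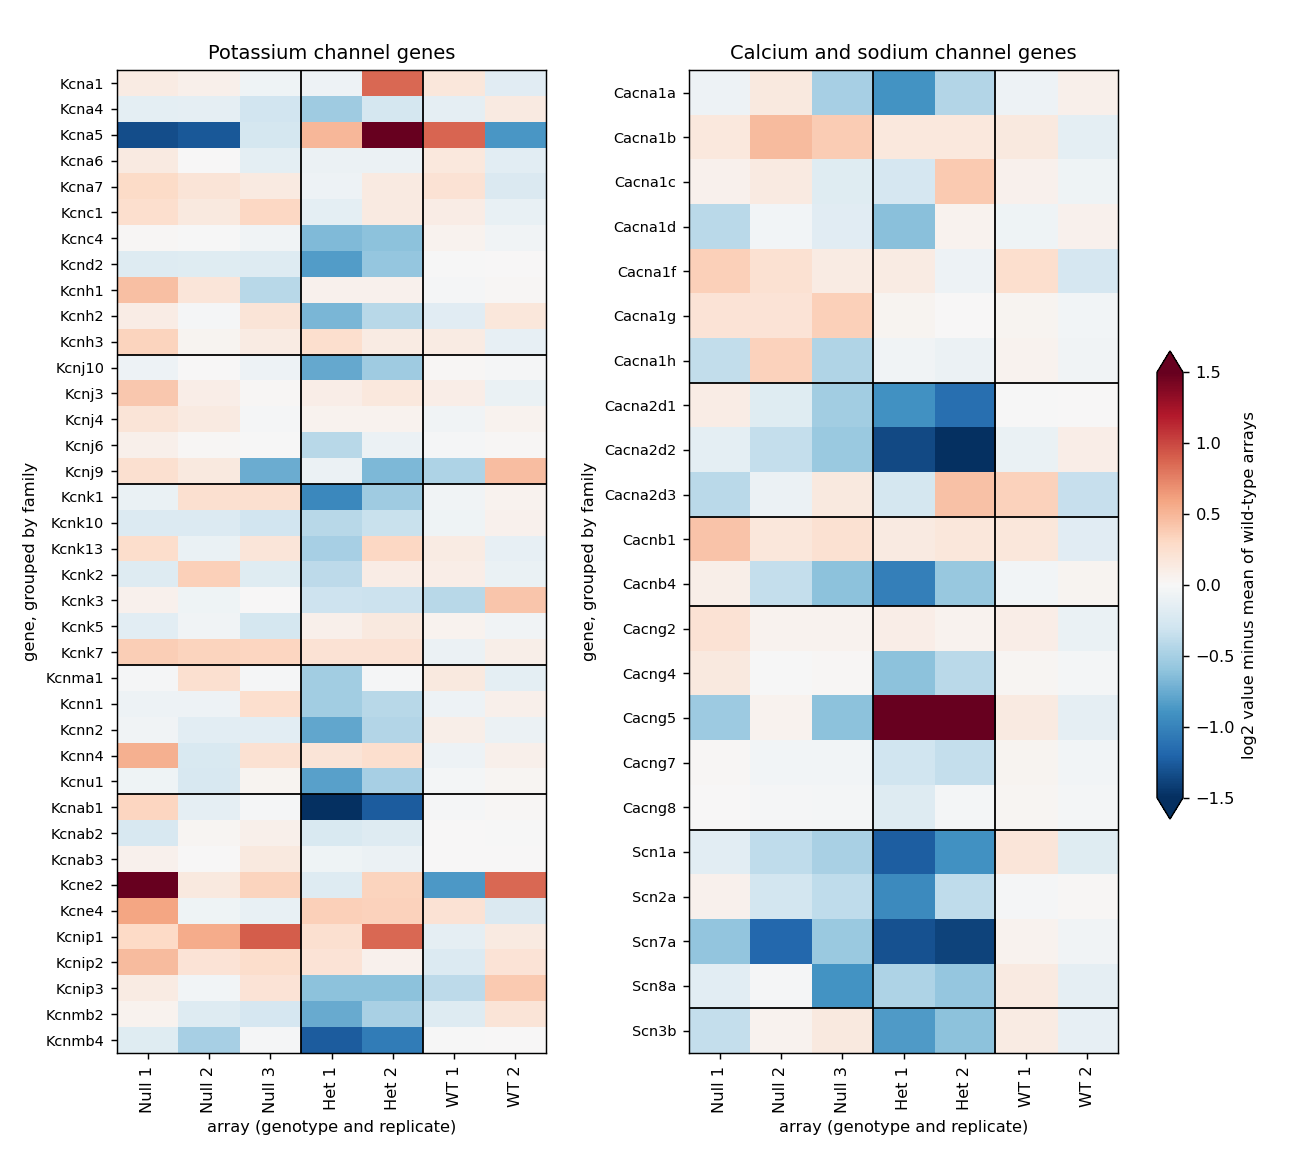
Log2 value of each tested channel gene (rows, grouped by family) on each array (columns: null, heterozygous, wild type) minus its mean over the wild-type arrays, with red above and blue below it and colours limited to 1.5 on either side. The 38 potassium genes are on the left and the 17 calcium and 5 sodium genes on the right, where the heterozygous columns are the darkest blue for Cacna2d2 and red for Cacng5.

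Among the calcium channels, the pores were called in 0 of 7 genes in heterozygous against wild-type cells, beside 10.1% of all genes. An unadjusted p below 0.05 was reached by 1 of the 7, beside 29.9% of all genes. With 7 genes these counts do not set the pores apart from genes at large. The 4 calls were all auxiliary subunits: 2 of 3 alpha-2-delta subunits fell, and of 5 gamma subunits tested 1 fell and 1 rose. The 2 beta subunits tested did not pass. The median over the 17 genes was -0.07.

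The alpha-2-delta subunits lie outside the cell and carry calcium channels to the surface and to synapses, and Cacna2d1 and Cacna2d2 bind gabapentin. Cacna2d2 measured 8.43, 8.22 and 8.02 in null, 7.22 and 6.68 in heterozygous and 8.48 and 8.68 in wild-type cells. The 3 groups did not overlap, and the heterozygous arrays stood apart. Cacna2d2 fell 3.09-fold in heterozygous against wild-type cells (-1.63 ± 0.21, adjusted p = 0.00962). Cacna2d1 measured 7.73, 7.43 and 7.09 in null, 6.71 and 6.48 in heterozygous and 7.61 and 7.62 in wild-type cells, and fell 2.02-fold (-1.02 ± 0.20, adjusted p = 0.0285). Other probe sets of both genes were above the 30th percentile on 0 arrays and could not show a difference. Cacna2d3 measured 7.25, 7.56 and 7.80 in null, 7.39 and 8.10 in heterozygous and 7.995 and 7.31 in wild-type cells, so all groups overlapped (0.09 ± 0.31, adjusted p = 0.884).

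Of the gamma subunits, several act on AMPA receptors rather than on calcium channels, which they help to the surface and slow in closing. Cacng4, one of those found in the oligodendrocyte lineage, measured 11.75, 11.59 and 11.61 in null, 10.98 and 11.19 in heterozygous and 11.63 and 11.56 in wild-type cells. It fell 1.42-fold in heterozygous against wild-type cells (-0.51 ± 0.12, adjusted p = 0.0432). Cacng5, another AMPA receptor partner, measured 6.05, 6.66 and 5.99 in null, 8.82 and 9.97 in heterozygous and 6.73 and 6.47 in wild-type cells. Its heterozygous arrays lay at least 2 units above the other 5, and it was the only channel gene that rose, 6.94-fold (2.79 ± 0.38, adjusted p = 0.011). The other probe set of Cacng5 was above the 30th percentile on 0 arrays and differed by 0.73. Cacng7 measured 5.80 to 5.86 in null, 5.54 and 5.47 in heterozygous and 5.87 and 5.80 in wild-type cells and missed the threshold (-0.33 ± 0.10, adjusted p = 0.0791).

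Cacnb4, a cytoplasmic beta subunit that brings pores to the membrane, measured 9.46, 9.02 and 8.76 in null, 8.35 and 8.80 in heterozygous and 9.32 and 9.42 in wild-type cells (-0.79 ± 0.24, adjusted p = 0.0811), and Cacnb1 differed by 0.15 ± 0.15 (adjusted p = 0.533). A dimmer probe set of Cacnb1, above the 30th percentile on 5 arrays, differed by -0.57, and another, above it on 0 arrays, by 0.00. The direction of Cacnb1 thus depended on the probe set. Among the pores, the L-type genes Cacna1c and Cacna1d differed by 0.07 (95% interval -0.44 to 0.58) and -0.29 (-0.83 to 0.25), and Cacna1f, known from the retina, by 0.03 ± 0.18. The T-type gene Cacna1g, which opens near rest, differed by 0.02 (95% interval -0.23 to 0.28), and the N-type gene Cacna1b, a channel of nerve endings, by 0.16 ± 0.15. The unadjusted p below 0.05 among the pores belonged to a gene outside the rule for naming, Cacna1a, a channel of synapses, named here after its values were seen, with -0.67 and an adjusted p of 0.115. The count of 4 calls became 2 without wild-type replicate 1 or heterozygous replicate 1, 0 without wild-type replicate 2 and 3 without any other array. Cacna2d2 and Cacng5 lost their calls only without wild-type replicate 2, where their adjusted p were 0.0923 and 0.0968, among the 7 arrays left out in turn.

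All 5 sodium channel genes tested were lower on both heterozygous arrays than on both wild-type arrays, beside 35.1% of all genes. Past the threshold were 2 of them, beside 10.1% of all genes. Scn1a encodes a pore best known from inhibitory neurons. It measured 9.03, 8.81 and 8.70 in null, 7.95 and 8.28 in heterozygous and 9.37 and 9.01 in wild-type cells. It fell 2.11-fold in heterozygous against wild-type cells (-1.07 ± 0.18, adjusted p = 0.018), with -0.75 in its other probe set. Scn7a encodes a sodium channel relative that senses the sodium concentration rather than voltage. It measured 7.09, 6.49 and 7.12 in null, 6.36 and 6.29 in heterozygous and 7.73 and 7.62 in wild-type cells, with the null arrays between the other groups, and fell 2.55-fold (-1.35 ± 0.21, adjusted p = 0.015). The beta subunit Scn3b, an adhesion-like partner of the pores, measured 9.73, 10.13 and 10.23 in null, 9.23 and 9.46 in heterozygous and 10.21 and 9.96 in wild-type cells and missed the threshold (-0.73 ± 0.19, adjusted p = 0.0564). Scn2a, a pore of axons and of oligodendrocyte progenitors, differed by -0.67 ± 0.22 (adjusted p = 0.0946), and Scn8a, a pore of mature axons, by -0.52 ± 0.28 (adjusted p = 0.255). The 2 calls became 0 without either wild-type array or without heterozygous replicate 1.

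**Figure D3:**
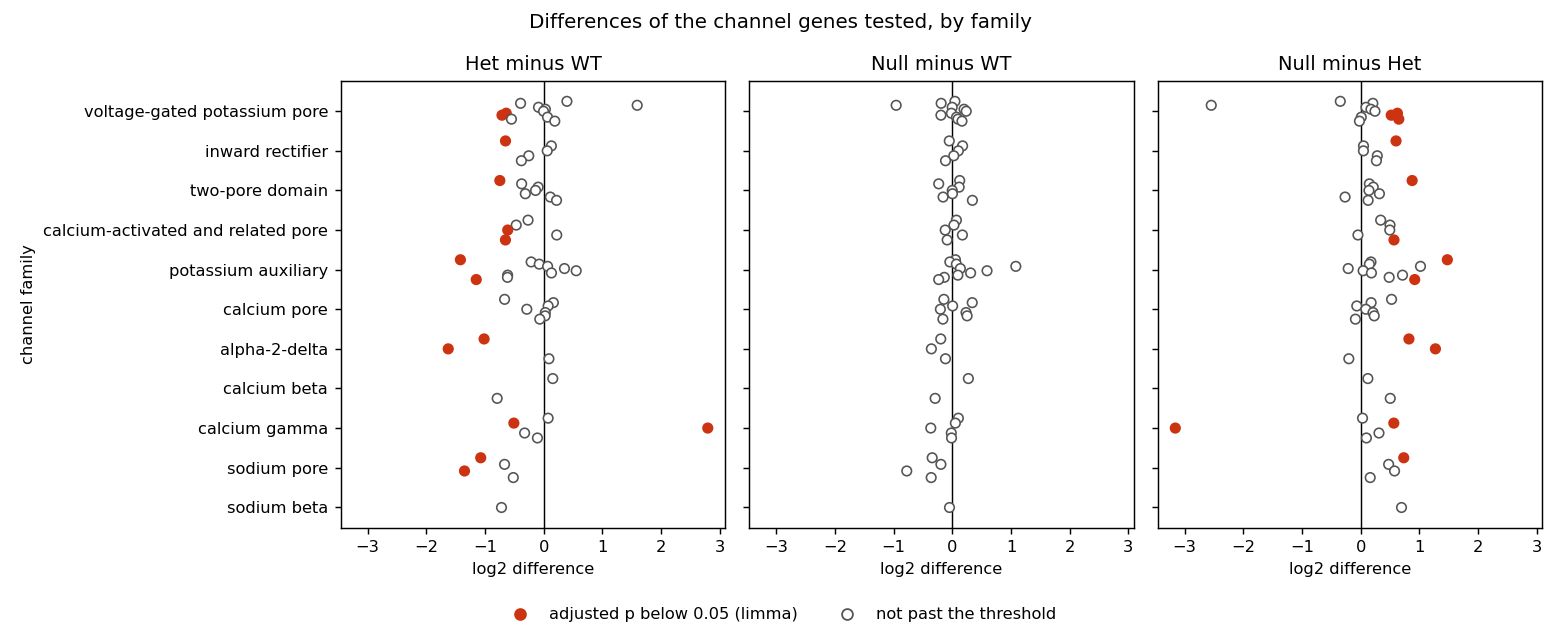
Log2 difference (x axis) of each of the 60 channel genes tested, by family (rows), in heterozygous minus wild-type, null minus wild-type and null minus heterozygous cells, with filled points past an adjusted p of 0.05 in limma. Filled points number 14, 0 and 13 in the 3 panels, and Cacng5 is the filled point at 2.79 in the first and at -3.16 in the third.

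In null against wild-type cells, 0 of the 60 channel genes passed, as did 0% of all genes, where the smallest adjusted p was 0.882. With an unadjusted p below 0.05 there were 6 channel genes, beside 5.14% of all genes. The median difference was 0.00 over the 60 genes. By class it was 0.05 for potassium, -0.02 for calcium and -0.34 for sodium channel genes. All 5 sodium genes tested had a difference below 0, beside 4643 of all 9243 genes. All null arrays lay above both wild-type arrays in 5 and below them in 5 of the 60, beside 21.7% of all genes that did not overlap in either direction, 10.7% above and 11% below. Scn7a had the smallest p, at -0.78 ± 0.19 (unadjusted p = 0.00509, adjusted p = 0.882), with all 3 null arrays below both wild-type arrays. Kcnk7 differed by 0.34 ± 0.10, Kcnip1 by 0.59 ± 0.24, Kcnk10 by -0.23 ± 0.10, Cacna1b by 0.34 ± 0.14 and Cacna1g by 0.25 ± 0.10. The other probe sets of Kcnip1 differed by 0.53, 0.13 and -0.30. Of the genes called in heterozygous cells, Kcnab1 differed by 0.05 (95% interval -0.34 to 0.45), Kcnj10 by -0.05 (-0.30 to 0.20), Cacna2d2 by -0.36 (-0.81 to 0.09) and Cacng5 by -0.37 (-1.19 to 0.45). An adjusted p above the threshold does not show that these genes were equal. For Kcnab1, Kcnj10, Cacna2d2 and Cacng5 the interval for null cells did not reach the difference measured in heterozygous cells. Those genes had been picked for that difference, its own error is not counted, and both differences use the same wild-type arrays. The intervals thus do not test whether null and heterozygous cells differ. For Scn7a the interval, -1.23 to -0.32, came near its heterozygous difference of -1.35.

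Null and heterozygous cells were compared directly to test whether the groups with 0 and 1 functional copies differed. This comparison and that of heterozygous with wild-type cells share the heterozygous arrays, so their calls are not independent. In null against heterozygous cells 13 of the 60 channel genes passed, beside 8.96% of all genes. Of these 12 were higher and 1, Cacng5, was lower in null cells, beside 5% of all genes that were higher and 3.96% that were lower. An unadjusted p below 0.05 was reached by 25 of the 60, beside 28.5% of all genes. All null arrays lay above both heterozygous arrays in 27 and below them in 3 of the 60, beside 25.7% and 17.9% of all genes (43.7% in either direction). The potassium genes were Kcnab1 (1.47 ± 0.17, adjusted p = 0.00781), Kcnmb4 (0.92), Kcnk1 (0.87), Kcnh2 (0.65), Kcnc4 (0.62), Kcnj10 (0.60), Kcnu1 (0.57) and Kcnd2 (0.52). Kcnc4's other probe set again did not show it (-0.02). The calcium genes were Cacna2d2 (1.27 ± 0.19, adjusted p = 0.0154), Cacna2d1 (0.82), Cacng4 (0.56) and Cacng5 (-3.16 ± 0.35, adjusted p = 0.00697), the last 8.94-fold lower in null cells. Scn1a was the sodium gene (0.73 ± 0.17, adjusted p = 0.0426). Kcnn2 (0.49, adjusted p = 0.0568) and Scn7a (0.58, adjusted p = 0.106) did not pass here. With arrays left out in turn the count lay between 2 (without heterozygous replicate 1) and 11, with 6 without wild-type replicate 1, wild-type replicate 2 or null replicate 1 and 5 without null replicate 3, and without the 2 arrays with both Xist and Y-linked signal it was 0. Cacna2d2 and Cacng5 kept their calls with each of the 7 arrays left out, and microglia and macrophage markers were lower in null cells in 9 of 13 genes (median -1.25).

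The genes that work beside the channels were counted in 4 lists. Of 24 partners and regulators of channels tested, 5 fell and 0 rose in heterozygous against wild-type cells (20.8% called, median -0.27). Over all genes 10.1% were called in this comparison, 5.95% lower and 4.2% higher. Fgf14, an intracellular factor that binds sodium channels, fell by 1.38 (adjusted p = 0.0185), Dpp6, which binds the channel of Kcnd2, by 1.04 (adjusted p = 0.0322), Lgi1, a secreted partner linked to Kcnab1 and AMPA receptors, by 1.08 and Cntn1, an adhesion protein that binds sodium channel subunits, by 0.53. Of 16 genes of intracellular calcium release and store entry, 6 fell and 1 rose (43.8% called, median -0.42). The calcium release channels Ryr3 and Ryr2 fell by 1.13 and 1.25 (adjusted p = 0.0129 each) and the store-operated pore Orai1 by 0.87, and Pvalb, a calcium buffer, rose by 1.21. Of 15 ion pumps and exchangers 2 rose and 2 fell (26.7% called, median 0.09). Slc12a5, the neuronal potassium-chloride cotransporter, measured 7.01, 7.06 and 7.51 in null, 5.88 and 5.62 in heterozygous and 7.50 and 7.46 in wild-type cells, and fell by 1.73 (adjusted p = 0.0071). The calcium pump Atp2b2 fell by 1.42, and the sodium pump modulators Fxyd5 and Fxyd1 rose by 1.19 and 1.60. Of 24 other cation and anion channels 1 rose, Clic1 (1.14), and 1 fell, Trpc1 (-0.86), which at 8.33% was no larger a share than over all genes. Gja1, a gap junction channel of astrocytes, and Trpv2, a cation channel, did not pass with 1.77 (adjusted p = 0.0583) and -0.74 (adjusted p = 0.065). In null against wild-type cells 0 genes of the 4 lists passed, as did 0% of all genes. An unadjusted p below 0.05 was reached by 3 of 24 partners and 3 of 16 calcium release genes, beside 5.14% of all genes. Among the 15 pumps and the 24 other channels it was reached by 0. In null against heterozygous cells 5 partners were higher and 1 lower, 3 calcium release genes were higher and 1 lower, 2 pumps were higher and 2 lower, and 1 other channel was higher and 3 lower. These were 25%, 25%, 26.7% and 16.7% of the members tested in the same order, beside 8.96% of all genes.

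**Figure D4:**
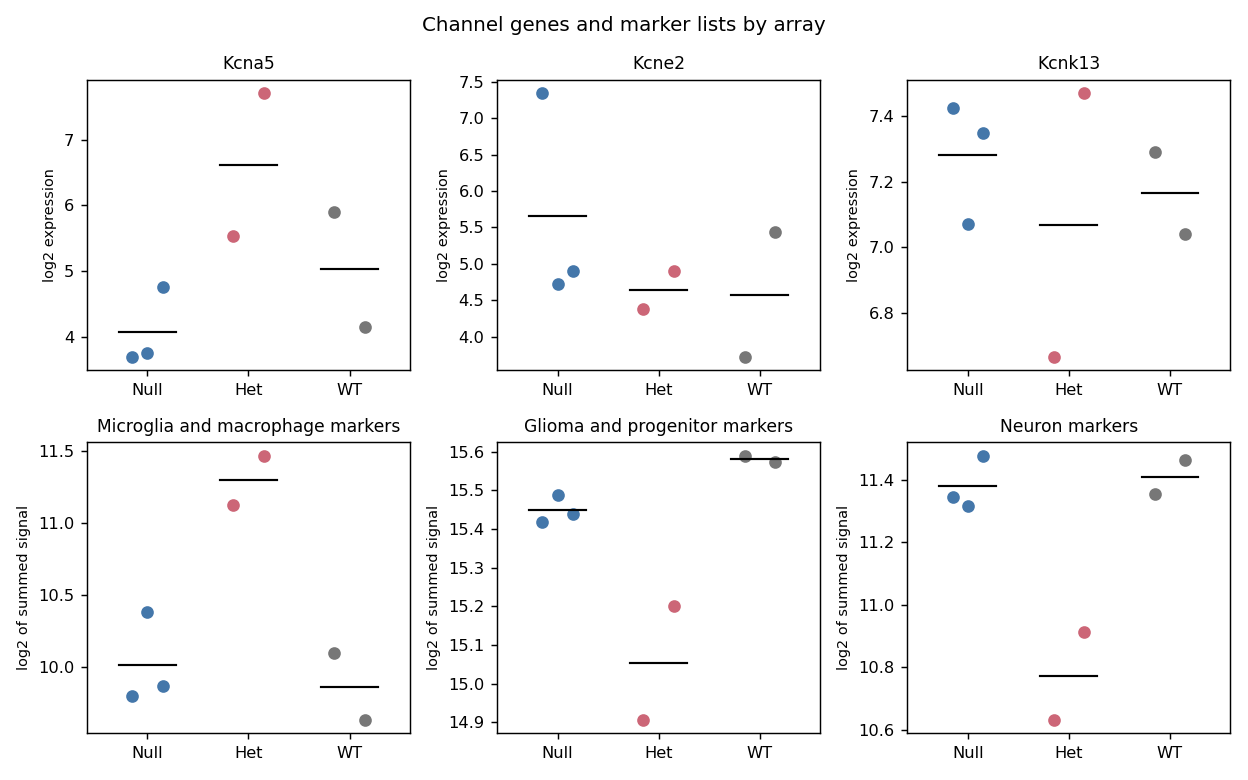
Upper row: log2 expression of Kcna5, Kcne2 and Kcnk13 by array in null, heterozygous and wild-type cells, with a bar at the group mean. Lower row: log2 of the summed linear signal of the microglia and macrophage, glioma and progenitor, and neuron markers, where both heterozygous arrays lie above the other 5 in the first panel and below them in the other two (y axes do not start at 0).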

How the data were processed

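RNA of sorted glioma cells was measured on 7 Affymetrix 3' expression arrays in 3 genotypes. The deposited values are log2 expression values that, per the submitters' processing notes, were made with RMA and Partek 6.6. RMA sets all arrays to a common distribution, so a change that all genes share is lost. Scanner files were not used here. How precise a value is depends on the few arrays per group. Of 22690 probe sets 64 were controls. Platform annotation gave 1 gene for 20380, several for 691 and none for 1555 of the rest. The probe set with the highest mean stood for a gene. Tests covered genes over the 30th percentile of all probe sets in 2 or more arrays, which left 9243 of 12393.

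Genotype means were estimated in 1 linear model of the 7 arrays (limma 3.58.1, R 4.3.3) with 4 residual degrees of freedom. Pairwise moderated tests were two-sided and were adjusted by Benjamini-Hochberg over all genes tested, at a threshold of 0.05. Errors in the text are standard errors of log2 differences unless stated otherwise. Simulated data in which 200 genes differed served to test the model. Promoter sequences came from RefSeq (GRCm38.p6), whose gene table held all 94 symbols and whose promoter table held 75 of them.

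The members and lists were chosen with earlier results of these data known. The genes named are those past the threshold in a comparison, the 5 potassium, 5 calcium and 3 sodium genes with the highest mean or smallest p, 21 chosen by name for a role in glia, microglia, vessels or glioma (18 on the array), and up to 4 of smallest p per list of other genes. That gave 40 channel genes. Alternatives covered the filter, the probe set, the normalization, the variance model, the arrays in the fit and the replicate number.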

Additional observations from a re-analysis of the deposited data

How the results depend on the processing

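With no filter, a filter at the 50th percentile, probe sets averaged by gene, quantile normalization, median centring or a variance trend, the channel calls in heterozygous against wild-type cells numbered 13 to 15. They numbered 12 when probe sets that may share sequence were left out. Leaving out arrays could not change the direction of a called channel gene, since its groups did not overlap. Under the other alternatives the called channel genes that were tested kept their direction, except Kcnc4. Its difference was 0.11 (adjusted p = 0.539) in heterozygous against wild-type and -0.022 (adjusted p = 0.914) in null against heterozygous cells when probe sets that may share sequence were left out.

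Counts depended on the variance estimate. In heterozygous against wild-type cells, without moderation 97 genes passed, with 1 channel gene, 1 potassium, 0 calcium and 0 sodium. With only the 2 genotypes in the fit the counts were 172, 4, 2, 1 and 1 in the same order, and 0 in each without both arrays with Xist and Y-linked transcripts, an alternative chosen after seeing the data, although 1802 genes had an unadjusted p below 0.05. With arrays left out in turn they ranged from 33 to 802, 0 to 14, 0 to 8, 0 to 3 and 0 to 3.

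In null against heterozygous cells the counts with all arrays were 828, 13, 8, 4 and 1. They were 2, 0, 0, 0 and 0 without moderation, 355, 6, 4, 2 and 0 with 2 genotypes, 0 in each without both arrays with Xist and Y-linked transcripts, and 90 to 732, 2 to 11, 0 to 8, 2 to 3 and 0 to 1 with arrays left out. Channel calls numbered 9 without a filter or without probe sets that may share sequence, and 16 with median centring. Potassium calls numbered 5 without probe sets that may share sequence. Sodium calls numbered 0 without a filter and 2 with the 50th percentile, mean probe sets, quantile normalization, median centring or a trend.

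In null against wild-type cells channel calls were 0 under every alternative run, and 1 gene in all passed with mean probe sets, without moderation or without null replicate 1. The Ptprd difference in heterozygous against wild-type cells was -1.37 without moderation (adjusted p = 0.131), -1.30 without those 2 arrays (adjusted p = 0.226) and -1.45 to -1.30 with arrays left out. The cause of these changes was not tested beyond the fewer arrays or degrees of freedom in each fit.

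Pairing by replicate number was looked at in the values left after each genotype's mean was subtracted. Same-numbered arrays then correlated at 0.11 for heterozygous with wild type. For null they correlated at -0.18 and -0.41 with wild type and at 0.02 and -0.19 with heterozygous. With 2 heterozygous and 2 wild-type arrays both replicate numbers give the same value, so these few values cannot decide whether the arrays were paired. With the replicate block 217 genes, 5 channel genes, 1 potassium and 1 sodium gene passed in heterozygous against wild-type cells, and 25 genes and 0 channel genes in null against heterozygous cells, 0 in each class. Ptprd then differed by -1.37 (adjusted p = 0.0535).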

Other observations

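Kcna5 and Kcne2 lie outside the rule for naming and were chosen after their values were seen. Kcna5, a voltage-gated potassium channel of muscle, vessels and microglia, measured 3.70, 3.76 and 4.76 in null, 5.53 and 7.71 in heterozygous and 5.91 and 4.15 in wild-type cells. Its differences, 1.59 in heterozygous against wild type (adjusted p = 0.24) and -2.55 in null against heterozygous (adjusted p = 0.0753), did not pass.

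Kcne2, a potassium channel subunit of the choroid plexus and stomach, measured 7.35 on null replicate 1 and between 3.72 and 5.43 on the other 6 arrays. Genes of the choroid plexus were highest on the same array: Ttr measured 14.32 there, Kl 6.89, Folr1 6.89, Sostdc1 7.89 and Otx2 6.12, beside at most 13.69, 5.39, 6.14, 7.005 and 4.95 on the other arrays. Their part in the Kcne2 value was not tested.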
